A study of Rattus norvegicus with 9 samples.

Results

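Cytochrome P450 (Cyp), UDP-glycosyltransferase (Ugt) and sulphotransferase (Sult) genes were followed in rat Sertoli cells of 3 postnatal ages. Members were taken by name in the probe annotation: Cyp, Ugt or Sult followed by a digit, Por, and names beginning with Ephx, leaving out Cyp51, Cyp11a1, Cyp17a1, Cyp19a1, Cyp26a1 and Cyp26b1. This gave 110 probes for 88 genes, of 35354 genes by name on the array. Of the 88 members, 36 passed the filter on dim probes, which asks for 2 arrays well above background within some age, and are called measured here. The other 52 did not pass, and 41 of them were at background level on each of the 9 arrays.

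Sertoli cells, which nurse the germ cells inside the seminiferous tubule, had been isolated from testes at 5, 12 and 60 days of age. Cells of all 3 ages spent 4 days in a defined medium and were then given ovine FSH (oFSH, 50 ng/ml) together with testosterone (1e-07 M) in pulses over 11 h, so that no value here is of a culture without hormones. Each age was read on 3 single-colour arrays. The labels name no strain, and whether a replicate was an animal, a pool or a culture of its own is not stated. The p values therefore speak only of the spread among these 9 samples, which may be technical.

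P450 enzymes are haem proteins that insert oxygen into steroids, fatty acids, vitamins and foreign compounds with electrons from Por or, in mitochondria, from ferredoxin. Epoxide hydrolases open the reactive epoxides some of them make. UDP-glycosyltransferases then join a sugar, mostly glucuronic acid, to the product and sulphotransferases a sulphate group, which makes it soluble and, for steroid hormones and thyroid hormone, usually inactive. In the testis such enzymes act on steroids made nearby as well as on foreign compounds that reach the tubule.

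The level of a gene is the log2 processed signal minus the 75th percentile of the array, so that 0 stands for that percentile and levels of different genes are not set against each other. Age differences are given in log2 with the SE of the fit and the adjusted p of limma (Benjamini-Hochberg over all 22447 genes tested); a member is said to have risen or fallen where that p was under 0.05. Where none of an age's arrays measured a gene above background, the fold is a lower bound, written as at least N-fold. Its reference on each array of that age is the lowest signal well above background, or the probe's own signal where that is higher. The 3 age comparisons share arrays, so their results are not independent of each other. RNA of a whole culture was measured, in which fewer cells of a type and less RNA per cell cannot be told apart.

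The share of probes well above background ranged from 49.1% to 63.0% over the arrays, with 53.5% to 56.9% at 5 days, 49.1% to 58.3% at 12 days and 58.7% to 63.0% at 60 days. Each replicate number was 1 slide with all 3 ages, and each age kept its place on the slide, so that place and age cannot be told apart. Of 20 Sertoli marker genes, all passed the filter. The summed level of a list is the log2 of the sum of its unlogged levels, so its brightest genes weigh most. For the Sertoli markers it was 5.69 to 5.84 at 5 days, 7.89 to 8.16 at 12 days and 8.62 to 8.71 at 60 days. Markers of other cells moved with age too. The summed level of the peritubular and fibroblast list (15 of 15 genes found were measured) was 9.19 to 10.09, 8.44 to 8.91 and 5.48 to 7.89 at 5, 12 and 60 days, and that of the macrophage list (10 of 14, with Cd163, Itgam and Cx3cr1 not above background at any age) was 2.76 to 3.54, 1.22 to 1.43 and 1.73 to 1.95. The Leydig cell list (10 of 11, without Lhcgr, which was not above background at any age) gave 4.24 to 4.98, 2.56 to 3.32 and 3.55 to 3.99, and the duct epithelium list (9 of 10) 5.76 to 6.69, 3.77 to 3.94 and 3.21 to 5.56. At 5 days the Leydig sum was mainly 1 gene: Hsd11b1 alone was at 4.74, 4.27 and 3.81 on the 3 arrays, against sums of 4.98, 4.56 and 4.24. The endothelium list (7 of 10) gave 3.53 to 3.72, 3.30 to 4.07 and 1.81 to 2.78, and the spermatogonia list (6 of 8) 3.24 to 3.61, 4.23 to 4.93 and 6.05 to 6.46. The spermatocyte list (15 of 15) stood at -0.65 to -0.27, 3.88 to 4.32 and 6.54 to 7.49, and the spermatid list (14 of 14) at -1.18 to -0.48, -0.87 to -0.27 and 3.78 to 4.40. At 5 days 12 of the 15 spermatocyte genes and 11 of the 14 spermatid genes were not above background, while at 60 days all of them were above it. The part of other cells in the age differences below was not tested.

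**Figure D1:**
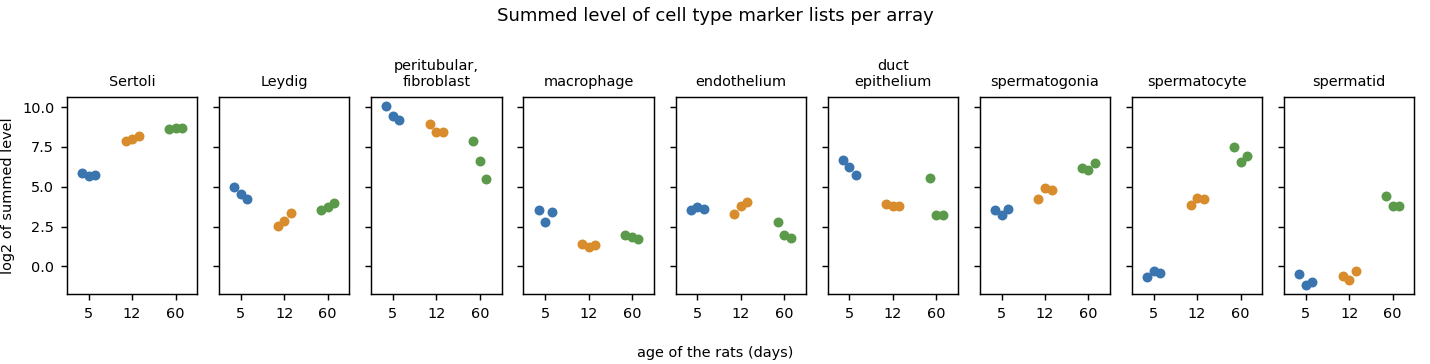
Summed level of 9 lists of cell type markers on each of the 9 arrays, log2 with each array's 75th percentile as 0 (vertical axis), by age of the rats in days (horizontal axis), 1 point per array. The Sertoli and germ cell lists are highest at 60 days, and the peritubular and fibroblast list is lowest there.

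Of the 88 members, 24 had 2 or more arrays well above background at 5 days, 23 at 12 days and 32 at 60 days. From 5 to 12 days 3 of the 36 measured members rose and 9 fell, where 6.14% of all genes tested rose and 6.30% fell. Between 12 and 60 days 11 rose and 4 fell, beside 12.2% and 13.1% of all genes. Over the whole span from 5 to 60 days 10 rose and 9 fell, beside 17.3% and 18.1%. The F-test over the 3 ages called 22 of the 36 members (61.1%), beside 36.7% of all genes. Cyp1a1, Cyp2d2, Cyp2f4, Cyp2r1, Sult1b1, Sult1c2a and Sult4a1 passed the filter through their arrays of 60 days only. Cyp7b1 and Cyp11b1 passed it through 5 days only, and Cyp3a18 through 12 days only. For these genes the filter favoured a difference at that age, so the counts above are no independent support for a trait of the group. The median difference of the measured members was -0.10, 0.11 and 0.03 in the 3 comparisons, and that of all genes tested 0.05, -0.16 and -0.09. The group therefore moved in no single direction over the median of all genes, and its members are described by role.

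**Figure D2:**
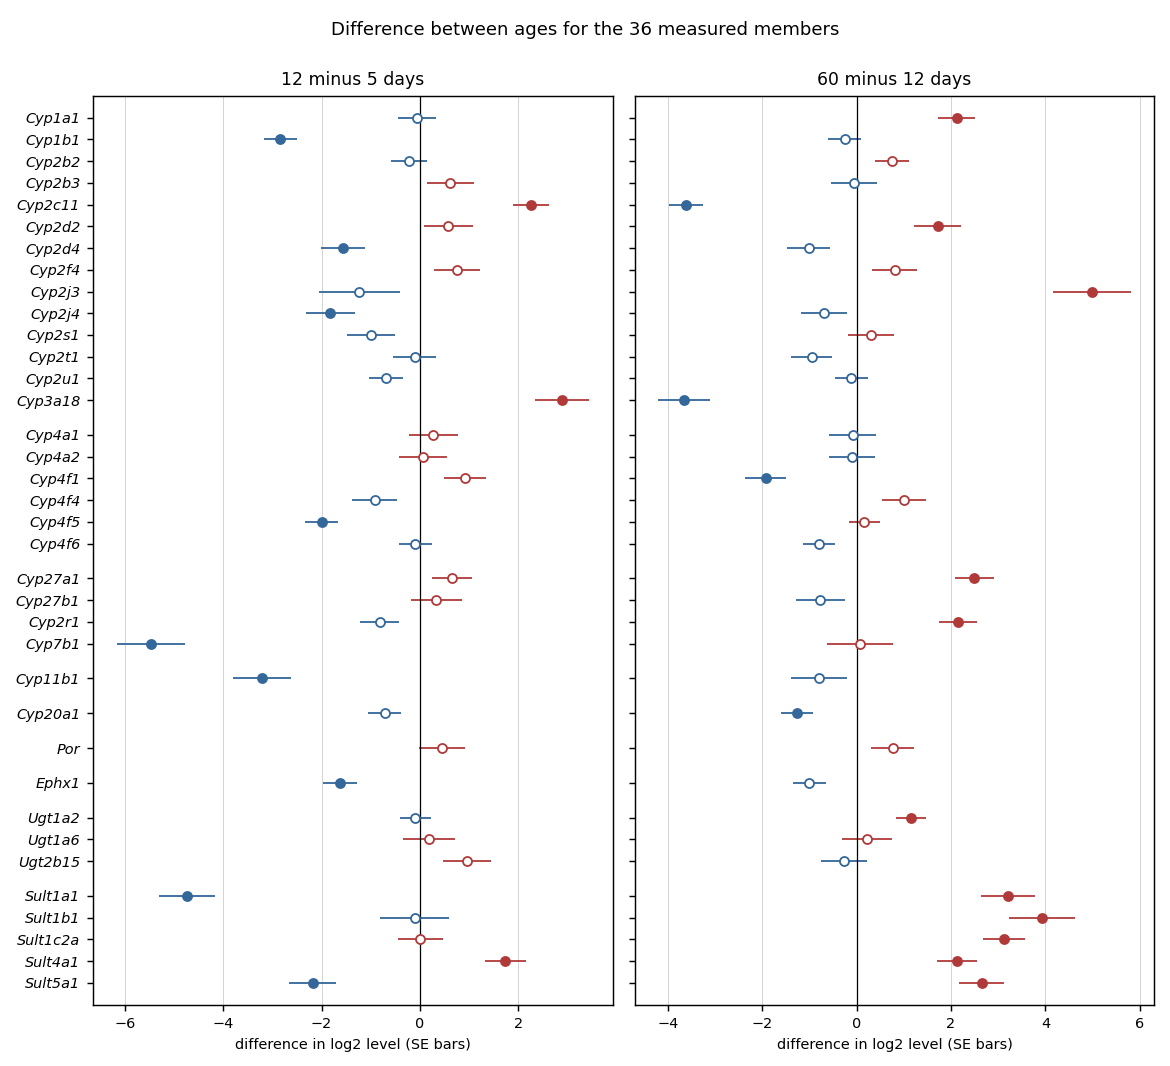
Difference in log2 level of the 36 measured members (1 line each, grouped by role), 12 minus 5 days on the left and 60 minus 12 days on the right, with bars of 1 SE from the limma fit. Filled points passed the test at an adjusted p under 0.05; red points are higher and blue points lower at the older age. All 5 measured sulphotransferases lie to the right in the comparison of 60 with 12 days.

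The members of P450 families 1 to 3, which mostly oxidise foreign compounds, fatty acids and steroids, were the largest set, with 14 of 38 genes measured. From 5 to 12 days 2 rose and 3 fell (14.3% and 21.4% of the 14, beside 6.14% and 6.30% of all genes), from 12 to 60 days 3 rose and 2 fell (21.4% and 14.3%, beside 12.2% and 13.1%), and from 5 to 60 days 4 rose and 4 fell (28.6% each, beside 17.3% and 18.1%). Well-known liver genes, Cyp1a2, Cyp2a2, Cyp2c12, Cyp2c13 and Cyp3a2, were among the 21 members of these families at background level on each array, and Cyp2e1, the ethanol-inducible P450, was above background on 1 array of 5 days only.

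Cyp1b1 oxidises oestrogens and polycyclic hydrocarbons outside the liver and is a well-known target of the aryl hydrocarbon receptor. Its level was 4.67, 4.10 and 3.67 on the 3 arrays of 5 days (replicates 1, 2 and 3, the order kept throughout), 1.29, 1.49 and 1.14 at 12 days, and 0.84, 1.08 and 1.24 at 60 days. All 3 arrays of 5 days lay far above the other 6, and the arrays of 12 and 60 days overlapped. The gene fell by 2.84 ± 0.34 from 5 to 12 days (adjusted p = 0.000405, 7.15-fold) and stood 8.53-fold lower at 60 than at 5 days (-3.09 ± 0.34, adjusted p = 4.12e-05), and both calls held under every alternative. A second probe, dimmer, also fell, by 2.44 from 5 to 12 days and by 1.93 from 5 to 60 days. The probe lies at chr6:2546002-2546061 (rn4). The 250 bases before its RefSeq start (chr6:21094315-21094564, + strand, build GRCr8) are shown because Cyp1b1 had the smallest p of all members in the comparison of 60 with 5 days among those that fell; capitals mark GCGTG, the core bound by the aryl hydrocarbon receptor and Arnt, on either strand.
Cyp1b1: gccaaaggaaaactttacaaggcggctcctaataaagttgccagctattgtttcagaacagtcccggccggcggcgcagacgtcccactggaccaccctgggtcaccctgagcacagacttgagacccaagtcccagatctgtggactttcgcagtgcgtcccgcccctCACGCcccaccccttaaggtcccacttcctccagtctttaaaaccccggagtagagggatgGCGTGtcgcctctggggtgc
GCGTG occurred here 2 times, 16 to 20 and 77 to 81 bases before the start. In the same window it was found before 25.9% of all 33469 RefSeq starts and before 11 of the 30 measured members with an entry, 5 of them among the 18 such members that differed by the F-test. A match is a description of letters, not a site. Neither Ahr, the receptor gene, nor Arnt passed the filter. The brightest probe of Ahr was well above background on no array, and that of Arnt on 1 array of each age.

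Cyp1a1, which oxidises polycyclic hydrocarbons, showed a different course. Its levels were -6.20, -5.19 and -6.08 at 5 days and -6.19, -6.14 and -5.33 at 12 days, none of them well above background, and -3.40, -4.01 and -3.89 at 60 days, all 3 of them above it. It rose at least 1.20-fold from 12 to 60 days (2.12 ± 0.39, adjusted p = 0.00249) and at least 1.19-fold from 5 to 60 days (adjusted p = 0.00189), but after normexp background correction, on the 6 arrays that allow it, the difference to 12 days turned to -0.16 (adjusted p = 0.788). This correction adds an offset of 50 intensity units to every signal, which narrows the log2 differences of dim probes. The part of the offset in this change was not tested. On the authors' deposited values the difference between 60 and 5 days was 1.46 (adjusted p = 0.122), and scaled by spike-in controls 1.72 (adjusted p = 0.184).

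Cyp2c11 (rn4 probe position chr1:243320626-243320685), filed as Cyp2c and known in rat liver as a male-specific steroid hydroxylase, peaked at 12 days. The 3 arrays of 5 days gave -3.44, -3.29 and -3.03, those of 12 days -1.10, -1.07 and -0.81, and those of 60 days -5.04, -4.90 and -3.93, of which 1 of 3 was well above background. No array of one age overlapped another. It rose by 2.26 ± 0.36 from 5 to 12 days (adjusted p = 0.00212, 4.80-fold) and then fell by 3.63 ± 0.36 (adjusted p = 5.03e-05, 12.4-fold), to below its level at 5 days (-1.37 ± 0.36, adjusted p = 0.0124). Without replicate 2 of 60 days the last of these was no longer called (adjusted p = 0.0537), and scaled by spike-in controls the rise at 12 days was 0.96 (adjusted p = 0.387). The rat Cyp2c genes are close in sequence, so the signal may be shared between them. The window before its start (chr1:246174966-246175215, + strand, GRCr8) is printed as the one of a member with a peak at 12 days; capitals mark AGGTCA, a nuclear receptor binding element, which 14.1% of all starts and 9 of the 30 members carried.
Cyp2c11: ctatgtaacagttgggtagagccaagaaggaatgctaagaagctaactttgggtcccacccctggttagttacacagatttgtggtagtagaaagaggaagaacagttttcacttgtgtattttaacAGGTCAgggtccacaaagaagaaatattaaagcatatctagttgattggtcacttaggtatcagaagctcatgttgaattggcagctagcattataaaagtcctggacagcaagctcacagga

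Cyp3a18 (rn4 probe position chr12:9087179-9087238), a steroid hydroxylase of the family that handles many drugs, was also highest at 12 days. It was well above background only at 12 days, with levels of -2.91, -2.86 and -2.65 on 3 of 3 arrays, against -6.33, -6.17 and -4.59 at 5 days and -7.01, -6.99 and -5.41 at 60 days. It was at least 2.32-fold higher at 12 than at 5 days (2.89 ± 0.55, adjusted p = 0.00577) and at least 3.53-fold lower at 60 than at 12 days (-3.66 ± 0.55, adjusted p = 0.000636). With the spike-in scale the first difference was 1.59 (adjusted p = 0.209). Among the genes that are no members, Foxa2, a liver transcription factor on the list of regulators, peaked at 12 days as well (3.06 ± 0.49 and -2.64 ± 0.49, adjusted p = 0.00226 and 0.00259).

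The Cyp2j enzymes make epoxides of arachidonic acid. The probes of the 2 measured genes lie near each other, at chr5:116702769-116702828 for Cyp2j4 and chr5:116744342-116744401 for Cyp2j3 (rn4), and the genes changed in opposite directions. Cyp2j4 stood at 2.48, 2.08 and 1.38 at 5 days, 0.37, 0.58 and -0.48 at 12 days and 0.39, -0.75 and -1.28 at 60 days. Every array of 5 days was above every other array, and it fell 5.76-fold from 5 to 60 days (-2.53 ± 0.49, adjusted p = 0.00217). Its fall from 5 to 12 days (-1.82 ± 0.49, adjusted p = 0.0349) was less firm: leaving out any of 5 single arrays, replicates 1 or 2 of 5 days, 1 or 3 of 12 days or 2 of 60 days, gave an adjusted p of 0.0532 to 0.125.

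Cyp2j3, filed as Cyp2j9, was at -2.13, -3.43 and -5.96 at 5 days, where 2 of 3 arrays were above background, at -4.34, -5.31 and -5.56 at 12 days, where none was, and at 0.75, -0.20 and -0.77 at 60 days. The 5-day arrays spread widely, and all 3 arrays of 60 days were above the other 6. It was at least 15.5-fold higher at 60 than at 12 days (4.99 ± 0.82, adjusted p = 0.00117) and rose by 3.77 ± 0.82 from 5 days (adjusted p = 0.00424). The second probe was above background on 3 of 3 arrays of 60 days and on none of 5 or 12 days.

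Of the Cyp2d genes, Cyp2d4, a P450 found in brain as well as liver (filed as Cyp2d22), fell and Cyp2d2 (filed as Cyp2d26) rose. Cyp2d4 was at -1.30, -1.14 and -0.26 at 5 days, -2.41, -3.22 and -1.78 at 12 days and -3.02, -3.58 and -3.87 at 60 days, and the arrays of 5 days lay above all others. It fell by 2.59 ± 0.45 from 5 to 60 days (adjusted p = 0.000994, 6.04-fold); its second probe was above background on 3 of 3 arrays of 5 days and on none of 12 or 60 days. The step from 5 to 12 days (-1.57 ± 0.45, adjusted p = 0.045) was no longer called when any of 7 of the 9 arrays was left out, all but replicate 3 of 12 days and replicate 1 of 60 days, with adjusted p of 0.0538 to 0.145.

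Cyp2d2 was above background on 2 of 3 arrays of 60 days only (-5.03, -3.50 and -3.26, against -6.29 to -6.15 at 5 days and -6.37 to -5.01 at 12 days). Its rise from 5 to 60 days was at least 1.06-fold (adjusted p = 0.00421; 0.109 with the spike-in scale). That from 12 to 60 days (at least 1.07-fold, adjusted p = 0.028) turned to -0.22 with normexp (adjusted p = 0.700), and was lost without replicate 1 or 2 of 12 days or 2 or 3 of 60 days (adjusted p = 0.0588 to 0.105). Cyp2f4, a lung naphthalene oxidase filed as Cyp2f2, was at least 1.44-fold higher at 60 than at 5 days (adjusted p = 0.0241), with -0.01 under normexp (adjusted p = 0.988); leaving out replicate 2 or 3 of 5 days or any array of 60 days gave 0.0516 to 0.0830, and the F-test did not call it (adjusted p = 0.0597).

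Among the uncalled members of these families, Cyp2b2, a phenobarbital-inducible P450, was at -1.86, -2.70 and -2.54, then -2.12, -3.08 and -2.58, then -1.70, -1.89 and -1.95 at 5, 12 and 60 days. The ages differed by less than the test could call (60 against 12 days 0.75 ± 0.36, adjusted p = 0.164), and Cyp2b probes of close relatives may share signal. Cyp2u1, a fatty acid hydroxylase, moved by -0.81 ± 0.35 from 5 to 60 days (adjusted p = 0.0969), Cyp2s1, an epithelial P450, by -0.69 ± 0.49 (adjusted p = 0.312), Cyp2t1 by -1.07 ± 0.43 (adjusted p = 0.0772) and Cyp2b3 by 0.56 ± 0.48 (adjusted p = 0.403).

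The family 4 enzymes hydroxylate fatty acids and leukotrienes at their far end. Of 10 genes 6 were measured, and the F-test called 2 (33.3%), near the 36.7% called over all genes. Cyp4f5 (rn4 probe position chr7:13133749-13133808) was at -0.61, -0.34 and -0.33 at 5 days, -2.60, -2.26 and -2.42 at 12 days and -2.81, -1.94 and -2.06 at 60 days. The arrays of 5 days were close together and above all others, and those of 12 and 60 days overlapped. It fell by 2.00 ± 0.33 from 5 to 12 days (adjusted p = 0.0027, 3.99-fold) and by 1.84 ± 0.33 from 5 to 60 days (adjusted p = 0.00126; 0.0620 with the spike-in scale).

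Cyp4f1, filed as Cyp4f2, was at -3.63, -3.95 and -3.62 at 5 days, -3.45, -2.72 and -2.26 at 12 days and -5.46, -4.70 and -4.08 at 60 days. The difference between 12 and 5 days was not called (0.92 ± 0.43, adjusted p = 0.222). It fell by 1.93 ± 0.43 from 12 to 60 days (adjusted p = 0.00706; 0.537 with the spike-in scale). Against 5 days the difference at 60 days was -1.01 ± 0.43 (adjusted p = 0.0929, and 0.0341 with the replicate number as a block). Cyp4f6, a leukotriene hydroxylase, was at 2.63, 2.04 and 1.94, then 2.01, 1.99 and 2.33, then 1.40, 1.52 and 1.01. All arrays of 60 days lay below the others, but its difference from 5 days, -0.89 ± 0.33, missed the threshold (adjusted p = 0.0546; 0.0399 with the block). Cyp4f4 (0.08 ± 0.46 from 5 to 60 days, adjusted p = 0.911), Cyp4a1 (0.18 ± 0.50, adjusted p = 0.819) and Cyp4a2 (-0.03 ± 0.49, adjusted p = 0.969), the first of the Cyp4a genes being filed as Cyp4a22 and the other as Cyp4a11, were not called. The Cyp4a genes are targets of peroxisome proliferators in liver.

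**Figure D3:**
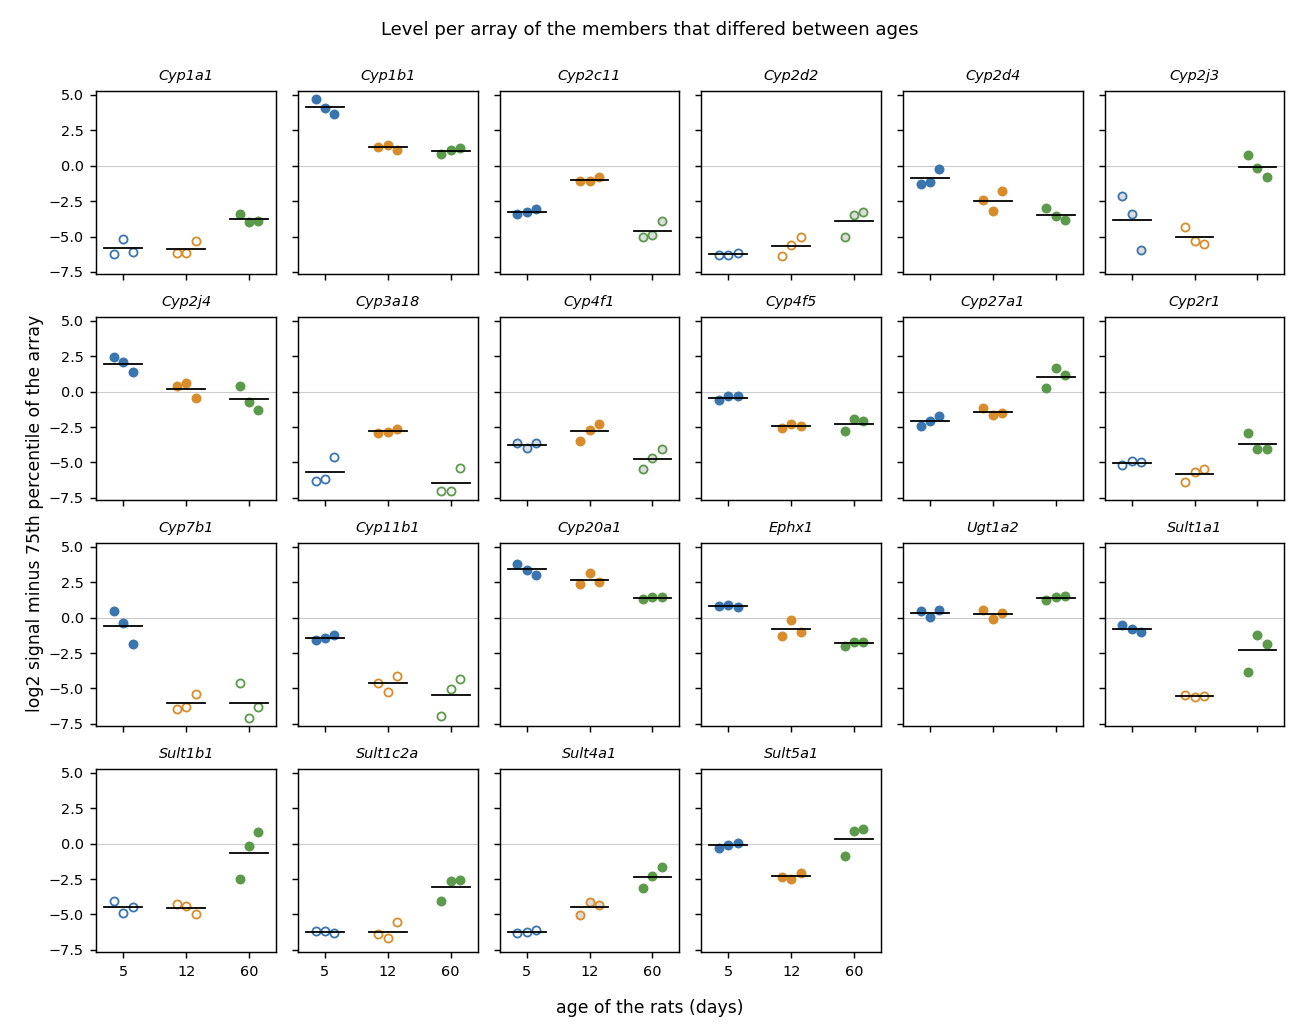
Level of each of the 22 members that the F-test called, on each of the 9 arrays (points, log2 signal minus the 75th percentile of the array), by age in days, with the mean as a black line. Filled points are ages at which 3 of 3 arrays were well above background, grey points ages with 1 or 2, and open points ages with none. Cyp7b1 and Cyp11b1 are filled at 5 days only, and Cyp2c11 and Cyp3a18 are highest at 12 days.

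Among the 9 P450 genes of sterol, bile acid and vitamin D metabolism, 4 were measured and 3 differed by the F-test, beside 36.7% of all genes. Of these 3, Cyp7b1 passed the filter through 5 days only and Cyp2r1 through 60 days only, which favoured a difference at that age. Cyp7b1 (rn4 probe position chr2:103104072-103104131), which hydroxylates oxysterols and neurosteroids, had levels of 0.46, -0.36 and -1.85 at 5 days. At 12 days (-6.46, -6.34 and -5.36) and at 60 days (-4.61, -7.06 and -6.31) no array was well above background. Signal was thus seen at 5 days alone, at least 10.9-fold above 12 days (-5.47 ± 0.70, adjusted p = 0.00059) and at least 16.0-fold above 60 days (-5.41 ± 0.70, adjusted p = 0.000129). The summed level of the peritubular and fibroblast, macrophage, duct epithelium and Leydig lists was highest at 5 days too, on all 3 arrays, as given above, for the Leydig list mainly through Hsd11b1. Dcn and Lum, matrix genes of the first of these lists, fell by 5.61 ± 0.48 and 5.82 ± 0.45 from 5 to 12 days (adjusted p = 6.8e-05 and 4.18e-05). They do not stand for that list, whose median difference at this step was -0.16. Of its 15 genes 0 rose and 4 fell, beside 6.14% and 6.30% of all genes. The part of these cells in this result was not tested.

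Cyp27a1 (rn4 probe position chr9:74067772-74067831), the mitochondrial sterol hydroxylase that starts the acidic route of bile acid synthesis, took the opposite course. Levels were -2.46, -2.10 and -1.71 at 5 days, -1.14, -1.66 and -1.53 at 12 days and 0.27, 1.69 and 1.19 at 60 days. The ages did not overlap, and the arrays of 60 days were all above the rest. It rose by 2.49 ± 0.41 from 12 to 60 days (adjusted p = 0.00112, 5.62-fold) and by 3.14 ± 0.41 from 5 to 60 days (adjusted p = 0.000133, 8.80-fold), under every alternative, while the step from 5 to 12 days was not called (0.65 ± 0.41, adjusted p = 0.400). The gene's electron donors are those of mitochondria: Fdxr rose by 2.67 ± 0.39 (adjusted p = 0.000291) and Fdx1 by 1.83 ± 0.31 (adjusted p = 0.000901) from 5 to 60 days. Unlike Cyp27a1, both were called from 5 to 12 days (2.19 ± 0.39 and 1.24 ± 0.31, adjusted p = 0.00398 and 0.0253) and not from 12 to 60 days (0.49 ± 0.39 and 0.59 ± 0.31, adjusted p = 0.409 and 0.203). Its upstream window (chr9:83713282-83713531, + strand, GRCr8) is shown because both rises held under every alternative; capitals mark AGGTCA on either strand, found 110 to 115 and 231 to 236 bases before the start.
Cyp27a1: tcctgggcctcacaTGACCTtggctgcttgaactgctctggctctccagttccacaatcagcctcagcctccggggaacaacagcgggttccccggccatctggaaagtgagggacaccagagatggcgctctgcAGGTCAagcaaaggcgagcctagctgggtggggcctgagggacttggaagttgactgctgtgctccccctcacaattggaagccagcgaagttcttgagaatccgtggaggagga

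Cyp2r1, which turns vitamin D into its circulating form, was not well above background at 5 days (-5.17, -4.88 and -4.99) or 12 days (-6.39, -5.66 and -5.43) and was so on 3 of 3 arrays at 60 days (-2.95, -4.07 and -4.05). It rose at least 1.27-fold from 12 days (2.14 ± 0.40, adjusted p = 0.0026) and at least 1.26-fold from 5 days (1.33 ± 0.40, adjusted p = 0.0245), but with normexp these turned to -0.07 and -0.15 (adjusted p = 0.908 and 0.810). The second was lost without any array of 5 days or without replicate 1 of 60 days (0.0521 to 0.0780). Cyp27b1, which makes the active hormone, was at -1.80, -3.12 and -1.52, then -1.80, -2.50 and -1.15, then -3.13, -2.71 and -1.92, and its ages overlapped (60 against 5 days -0.44 ± 0.52, adjusted p = 0.552). Cyp24a1, which breaks the hormone down, and Cyp7a1, the rate-limiting enzyme of bile acid synthesis in liver, were at background level on every array, and Vdr, the receptor gene, did not pass the filter.

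Of 4 P450 genes of adrenal steroid synthesis (Cyp11b1, Cyp11b2, Cyp11b3 and Cyp21a1) only Cyp11b1 (rn4 probe position chr7:112977770-112977829), the last enzyme of corticosterone synthesis, was measured. It was at -1.57, -1.46 and -1.24 at 5 days, on 3 of 3 arrays above background, and on none at 12 days (-4.61, -5.24 and -4.09) or 60 days (-6.92, -5.07 and -4.34). Its level at 5 days was at least 6.11-fold above that at 12 days (-3.22 ± 0.59, adjusted p = 0.00456) and at least 9.12-fold above that at 60 days (-4.02 ± 0.59, adjusted p = 0.000295). The call from 5 to 12 days was lost without replicate number 2 of all ages (adjusted p = 0.0887) and with normexp (-1.03, adjusted p = 0.132). Close relatives of Cyp11b1 could add to its probe. Hsd11b1, which regenerates corticosterone and stands in the list of other oxidation enzymes, also fell from 5 to 12 days (-4.59 ± 0.44, adjusted p = 0.000131) and is on the Leydig list. The genes of that list went both ways at this step. Of 10 measured 2 rose and 3 fell, beside 6.14% and 6.30% of all genes.

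Cyp20a1 (rn4 probe position chr9:58972778-58972837), a P450 whose substrate is not known, was bright at all ages, at 3.81, 3.37 and 3.03, then 2.35, 3.14 and 2.54, then 1.29, 1.46 and 1.49. It fell by 1.99 ± 0.34 from 5 to 60 days (adjusted p = 0.000947, 3.97-fold), with no overlap. The fall from 12 to 60 days (-1.27 ± 0.34, adjusted p = 0.020) was lost without replicate 2 of 12 days (0.0772) or of 60 days (0.0562), and with the spike-in scale was -0.31 (adjusted p = 0.868).

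Por (rn4 probe position chr12:22079298-22079446), the reductase that gives electrons to every microsomal P450, was at 0.41, 1.19 and 1.67 at 5 days, 2.00, 0.95 and 1.68 at 12 days and 1.69, 2.88 and 2.33 at 60 days. The arrays of 60 days lay just above those of 5 days, and those of 12 days overlapped both. The difference between 60 and 5 days, 1.21 ± 0.46, missed the threshold (adjusted p = 0.0614); with the replicate number as a block it passed (adjusted p = 0.0470), as it did without replicate 3 of 5 days (0.0399) or replicate 1 of 60 days (0.0346).

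Ephx1 (rn4 probe position chr13:96729072-96729131), the microsomal epoxide hydrolase, was at 0.81, 0.87 and 0.78 at 5 days, -1.27, -0.17 and -0.98 at 12 days and -2.02, -1.73 and -1.69 at 60 days. The 3 ages did not overlap, and the arrays of 5 days lay close together. It fell 6.21-fold from 5 to 60 days (-2.64 ± 0.35, adjusted p = 0.000146), under every alternative. The first step was -1.63 ± 0.35 (adjusted p = 0.0108; 0.0506 without replicate 1 of 12 days) and the second -1.01 ± 0.35 (adjusted p = 0.0558; 0.0298 with the replicate number as a block). The call of the first step was also lost without replicate number 1, 2 or 3 of all ages (adjusted p = 0.0994, 0.0621 and 0.114) and with normexp (-1.19, adjusted p = 0.0724). Ephx2, the soluble enzyme, was not well above background on any array. RefSeq gives Ephx1 more than 1 start, and the window before the one at chr13:95263118-95263367 (- strand, GRCr8) is printed because it was the only one of a changed member to hold TGACNNNGC, the core of the antioxidant response element bound by Nfe2l2; capitals mark this core, 49 to 57 bases before the start, and AGGTCA, 126 to 131 and 191 to 196 bases before it.
Ephx1: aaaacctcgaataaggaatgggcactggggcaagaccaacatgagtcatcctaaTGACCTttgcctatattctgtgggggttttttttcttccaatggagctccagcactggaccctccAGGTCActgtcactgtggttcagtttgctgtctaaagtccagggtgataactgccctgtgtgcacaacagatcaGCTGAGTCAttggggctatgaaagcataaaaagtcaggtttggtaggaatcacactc
The window before the other start of Ephx1 (chr13:95275853-95276102) held no GCGTG, TGACNNNGC or AGGTCA. TGACNNNGC was found before 10.1% of all starts and before 2 of the 30 measured members with an entry. Nfe2l2 was at 4.58, 3.70 and 2.65 at 5 days, 3.45, 3.23 and 0.22 at 12 days and 3.69, 3.12 and 0.21 at 60 days, with replicate 3 the lowest array of every age (60 against 5 days -1.30 ± 1.02, adjusted p = 0.359). Nqo1, a quinone reductase and textbook Nfe2l2 target, fell from 5 to 12 days (-3.19 ± 0.41, adjusted p = 0.000648) and rose from 12 to 60 days (1.58 ± 0.41, adjusted p = 0.0171).

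UDP-glycosyltransferases were sparse: 3 of 12 genes were measured, and Ugt1a1, the bilirubin enzyme, was not well above background on any array. Ugt1a2 (rn4 probe position chr9:87097940-87097999) was at 0.44, 0.07 and 0.57 at 5 days, 0.52, -0.07 and 0.36 at 12 days and 1.25, 1.47 and 1.53 at 60 days. The first 2 ages overlapped and all arrays of 60 days were higher. It rose by 1.15 ± 0.31 from 12 days (adjusted p = 0.0205, 2.22-fold) and by 1.06 ± 0.31 from 5 days (adjusted p = 0.0223), and its second probe by 1.82 and 1.26. Both calls were fragile: the first was lost without replicate 2 of 12 days or 2 or 3 of 60 days (0.0670 to 0.0777) and the second without replicate 2 of 5 days or 2 or 3 of 60 days (0.0687 to 0.0953), and under spike-in scaling the differences were 2.11 and 0.71 (adjusted p = 0.0916 and 0.680). The Ugt1a genes share most of their exons, so a probe can read several of them. Ugt1a6, which conjugates flat phenols, moved by 0.39 ± 0.53 from 5 to 60 days (adjusted p = 0.613), and Ugt2b15, under which probes filed as Ugt2b3 and Ugt2b5 were placed, by 0.68 ± 0.49 (adjusted p = 0.320).

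Of 11 sulphotransferase genes 5 were measured. All 5 differed by the F-test, beside 36.7% of all genes, and all 5 rose from 12 to 60 days, beside 12.2%. Their median difference there was 3.12, beside -0.16 for all genes. Sult1b1, Sult1c2a and Sult4a1 passed the filter through their arrays of 60 days only. The filter thus favoured a rise to that age for these genes, and the count of 5 is no independent support for it. From 5 to 12 days the test called 1 higher, Sult4a1, near background level, and 2 lower, beside 6.14% and 6.30% of all genes. With normexp, on 6 arrays, none of the 5 rises was called, at 0.30 for Sult1a1, 1.32 for Sult1b1, 0.11 for Sult1c2a, 0.29 for Sult4a1 and 1.23 for Sult5a1 (adjusted p = 0.114 to 0.854). The offset of 50 units in that correction narrows the differences of dim probes, and its part in these losses was not tested. The summed levels of the Sertoli, spermatogonia, spermatocyte, spermatid, macrophage and Leydig lists were also higher on every array of 60 days than on any of 12 days, as given above, and their part in this result was not tested.

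Sult1a1 (rn4 probe position chr1:185829753-185829812), the phenol sulphotransferase, dipped at 12 days. It was at -0.52, -0.78 and -1.03 at 5 days, at -5.45, -5.59 and -5.51 at 12 days, where no array was above background, and at -3.86, -1.22 and -1.87 at 60 days. It was at least 9.57-fold lower at 12 than at 5 days (-4.74 ± 0.57, adjusted p = 0.000404) and at least 3.28-fold higher at 60 than at 12 days (3.20 ± 0.57, adjusted p = 0.00188). At 60 days it remained below 5 days on every array, by 1.54 ± 0.57 (adjusted p = 0.0566; 0.0428 with the block and 0.0162 without replicate 2 of 60 days).

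Sult5a1 (rn4 probe position chr19:53472826-53472885), a family member of unclear substrate, was also lowest at 12 days, with -0.34, -0.11 and 0.07 at 5 days, -2.39, -2.47 and -2.05 at 12 days and -0.90, 0.91 and 1.03 at 60 days. Every array of 12 days lay below every other array. It fell by 2.18 ± 0.48 (adjusted p = 0.0134; 0.0504 without replicate 1 of 12 days) and then rose by 2.65 ± 0.48 (adjusted p = 0.0022, 6.26-fold). The call of the fall was also lost without replicate number 2 or 3 of all ages (adjusted p = 0.144 and 0.0749) and with normexp (-1.05, adjusted p = 0.34). That of the rise was lost without replicate number 2 (adjusted p = 0.0613). Between 60 and 5 days the difference was 0.47 ± 0.48 (adjusted p = 0.488), and 1.09 (adjusted p = 0.0286) without replicate 1 of 60 days, the lowest array of that age.

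Sult4a1 is a brain sulphotransferase with no settled substrate. Levels were -6.33, -6.24 and -6.11 at 5 days, where none was above background, -5.05, -4.10 and -4.30 at 12 days, where 1 of 3 was, and -3.10, -2.32 and -1.65 at 60 days, where all 3 were. The ages did not overlap. It rose at least 3.17-fold from 5 to 60 days (3.87 ± 0.42, adjusted p = 3.58e-05) and by 2.12 ± 0.42 from 12 to 60 days (adjusted p = 0.00351). Between 5 and 12 days the signal gave no lower bound above 1-fold, since most arrays of both ages were at background level, so no rise is shown at that step. The test called it (adjusted p = 0.0193), and the call was lost without replicate 1 or 2 of 5 days or 2 or 3 of 12 days (0.0622 to 0.0667) and under spike-in scaling (0.44, adjusted p = 0.683).

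Sult1b1 (rn4 probe position chr14:22031815-22031874), which sulphates thyroid hormone, was seen at 60 days alone, at -2.53, -0.19 and 0.82, against -4.88 to -4.02 at 5 days and -4.99 to -4.29 at 12 days. It was at least 10.2-fold above 12 days (3.92 ± 0.70, adjusted p = 0.00191) and at least 10.3-fold above 5 days (3.81 ± 0.70, adjusted p = 0.00138); its second probe was above background at 60 days only, on 2 of 3 arrays. Sult1c2a was at -4.04, -2.63 and -2.60 at 60 days and not above background before. It rose at least 1.92-fold from 12 days (3.12 ± 0.45, adjusted p = 0.000519) and at least 1.91-fold from 5 days (adjusted p = 0.000276). Replicate 1 was the lowest array of 60 days for all 5 sulphotransferases. Sult1e1, the oestrogen sulphotransferase, filed under another name and so no member, was not well above background on any array.

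The genes that serve these enzymes were taken from 6 lists. Their counts are to be read beside the shares of all genes tested. From 5 to 12 days 6.14% of all genes rose and 6.30% fell, and from 12 to 60 days 12.2% and 13.1%. From 5 to 60 days 17.3% rose and 18.1% fell. Cofactor supply and removal for glucuronidation and sulphation (20 of 21 measured) had 1 gene up and 4 down from 5 to 12 days, then 6 up and 0 down from 12 to 60 days by limma (7 and 2 at an unadjusted p under 0.05), and 4 up and 7 down from 5 to 60 days. Papss2 and Ugdh, which make the activated sulphate and the activated glucuronic acid, fell by 3.09 ± 0.40 (adjusted p = 0.000127) and by 2.49 ± 0.44 (adjusted p = 0.00114) from 5 to 60 days. Sts, the steroid sulphatase that removes the sulphate again, rose by 3.61 ± 0.32 (adjusted p = 1.08e-05). From 12 to 60 days, when the 5 sulphotransferases rose, Sts rose by 2.16 ± 0.32 (adjusted p = 0.000656) and Papss2 differed by -0.74 ± 0.40 (adjusted p = 0.212).

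The other conjugation enzymes (25 of 29 genes found were measured) had 7 up and 0 down from 12 to 60 days (9 and 2 at an unadjusted p under 0.05), and 5 up and 3 down from 5 to 60 days. Of all genes 12.2% rose and 13.1% fell in the first comparison, and 17.3% and 18.1% in the second. Gsta2, a glutathione transferase, dipped at 12 days as Sult1a1 did (-3.45 ± 0.73, adjusted p = 0.0104) and then rose by 8.60 ± 0.73 (adjusted p = 1.87e-05); at 12 days 1 of 3 arrays was above background. Gstm7 and Gstm2 rose by 4.10 ± 0.45 and 3.62 ± 0.44 from 5 to 60 days (adjusted p = 4.26e-05 and 7.79e-05). Glutathione transferases of a class are close in sequence, and their probes may share signal.

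Other oxidation and hydrolysis enzymes (32 of 39 measured) had 4 up and 6 down, 9 up and 4 down, and 8 up and 8 down in the 3 comparisons. All genes had 6.14% up and 6.30% down, 12.2% and 13.1%, and 17.3% and 18.1%. Fmo2, a flavin oxygenase, fell by 7.91 ± 0.43 from 5 to 60 days (adjusted p = 6.8e-07), where 1 of 3 arrays of 60 days was above background. Aldh1a7, an aldehyde dehydrogenase, rose by 5.61 ± 0.34 (adjusted p = 1.07e-06), and Adh1c, an alcohol dehydrogenase, was at least 9.47-fold lower at 12 than at 5 days (adjusted p = 9.8e-05). The electron and haem supply (23 of 23 measured) had 3 up and 1 down, 4 up and 1 down, and 4 up and 0 down (4 and 1 at an unadjusted p under 0.05). Its rises from 5 to 60 days, 4 of 23, were near the 17.3% of all genes. Beside Fdxr, the largest changes of this list were those of Blvrb, a biliverdin reductase (3.07 ± 0.32 from 12 to 60 days, adjusted p = 7e-05), and Nr1d1, a haem-sensing receptor (2.33 ± 0.45 from 5 to 12 days, adjusted p = 0.00601).

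Drug carriers (15 of 26 measured) had 2 up and 2 down, 3 up and 0 down (3 and 1 at an unadjusted p under 0.05), and 5 up and 2 down. Abcg2, an efflux pump that also carries sulphate conjugates, fell by 2.50 ± 0.39 from 5 to 60 days (adjusted p = 0.000443), while Slc22a5, the carnitine carrier, and Abcc3, an efflux pump for glucuronides, rose by 2.25 ± 0.35 and 2.20 ± 0.43 (adjusted p = 0.000469 and 0.00206). The regulators (17 of 27 measured) had 3 up and 1 down, 1 up and 2 down, and 2 up and 3 down. All genes had 6.14% up and 6.30% down, 12.2% and 13.1%, and 17.3% and 18.1% in these comparisons. From 5 to 60 days the falls of carriers and regulators were no more frequent than the 18.1% of all genes. Pparg, a fat-sensing nuclear receptor, was at least 7.43-fold higher at 60 than at 5 days (4.48 ± 0.49, adjusted p = 3.85e-05), and Cebpb fell by 2.36 ± 0.38 (adjusted p = 0.000585).

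**Figure D4:**
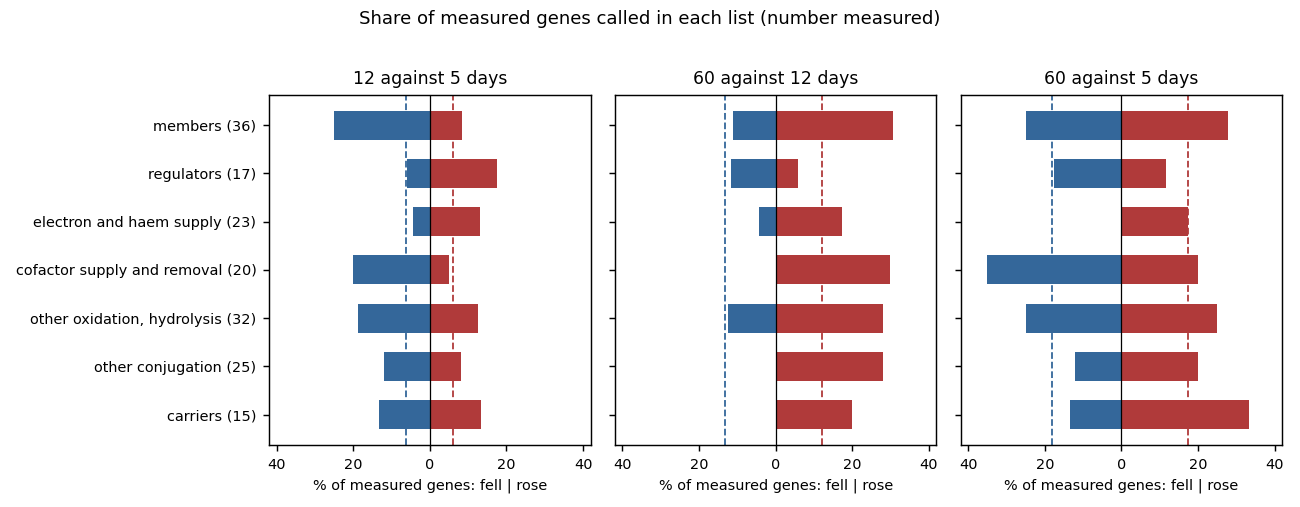
Share of the measured genes of the members and of the 6 lists (number measured in brackets) that rose (red, to the right) or fell (blue, to the left) in each age comparison, in percent; dashed lines are the shares over all 22447 genes tested. From 12 to 60 days no gene of the cofactor, conjugation and carrier lists fell by the test.

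When arrays were scaled by their spike-in controls, the median difference of all genes moved from 0.049 to -1.251 (12 against 5 days), from -0.165 to 0.793 (60 against 12) and from -0.087 to -0.43 (60 against 5). The members then gave 0 up and 10 down, 10 up and 2 down, and 5 up and 7 down, in place of 3 and 9, 11 and 4, and 10 and 9. Of the 46 calls over the 3 comparisons 33 held, and none turned direction. With normexp, on the 6 arrays of replicates 1 and 3, 14 calls held, 27 were lost and 5 turned. Those that held were the falls from 5 to 60 days of Cyp1b1, Cyp11b1, Cyp20a1, Cyp2d4, Cyp2j4, Cyp4f5, Cyp7b1 and Ephx1, both rises of Cyp27a1 and Cyp2j3, the fall of Cyp1b1 from 5 to 12 days and that of Cyp2c11 from 12 to 60 days. No call of a sulphotransferase or of Ugt1a2 was among them. Leaving out replicate 1, 2 or 3 of all ages kept 38, 27 and 35 calls. No left-out array or replicate number ended 27 of the 46, among them both falls of Cyp1b1 and Cyp7b1, both rises of Cyp27a1, Cyp2j3 and Sult1b1, and the dip of Sult1a1.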

How the data were processed

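RNA of 9 cultures was amplified from an oligo-dT primer and labelled with Cy3, per the labels' protocols, for single-colour Agilent arrays. Per the file headers, the scans were quantified with Agilent Feature Extraction, version 9.5.3.1 on a G2505B scanner for replicate 1 and version 10.5.1.1 on a G2505C scanner for replicates 2 and 3. Per the file headers, the deposited processed signal of a spot is a background-subtracted intensity. The authors' deposited table of log2 values matched the values computed here from the intensity within 0.01 for 99.622% or more of the probes, and served as an alternative.

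Control spots were dropped, spots of a probe averaged, and 271 of 41012 probes with a non-uniformity flag on any array dropped. After the filter 26589 probes remained, and the brightest on average stood for each of 22447 genes. The 75th percentiles were 150 to 437 intensity units, and saturation touched 29 to 141 probes of an array. Precision is limited by how few arrays there are. Names were brought to current RefSeq symbols by accession (11189 probes), symbol (5581) or older symbol (3713), and 20529 probes kept the file's name. Positions of probes are those in the files (rn4); promoter windows of 250 bases come from RefSeq (GRCr8), with an entry for 72 of the 88 members. Exons and untranslated regions were not annotated here. limma 3.58.1 under R 4.3.3 fitted 1 mean per age to the 9 arrays (residual df 6, prior df 4.63), with 2-sided moderated tests, an F-test and Benjamini-Hochberg adjustment over all genes; the fit was tested on simulated data. The simulated arrays had independent noise, so they lacked the pairing by replicate number described below and cannot show its effect on the fit. Tables and plots were made with Python 3.11.15, pandas 2.3.3, numpy 2.4.6 and matplotlib 3.10.9.

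Arrays of the same replicate number and different age deviated together from their age means (correlation 0.181 to 0.601 over 9 pairs; at most 0.094 for other pairs of ages), so the numbers, which are the slides, pair the arrays, and the number was an alternative block. The members, the 6 lists, the 9 marker lists and the motifs were chosen with earlier results of these data known. Named were all members called in a comparison or by the F-test, a fixed set of members whatever their change (of which Cyp4v3 was not found by name, and Cyp2e1, Cyp4b1, Cyp24a1, Ephx2 and Ugt8 were not measured), the brightest uncalled members, and up to 3 called genes with the largest change per list; Nfe2l2, Nqo1, Vdr, Fdx1, Hsd11b1, Dcn and Lum were added after their values were seen. Alternatives were other scalings, background correction, filters, probes, the deposited table, the block, and leaving out arrays.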

Additional observations from a re-analysis of the deposited data

How the results depend on the processing

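Of the 46 member calls over the 3 age comparisons, all 46 were kept with the replicate number as a block (the numbers pair the arrays), which called 5 more and gave counts of 12, 16, 23 and 23 members, with the median or quantile scaling and with every probe tested; 45 were kept on the deposited table, 44 with no filter and 33 with the spike-in scale. The counts of members called were 12, 15, 19 and 22 (12 against 5, 60 against 12, 60 against 5 days, and any age). When a probe had to be above background on each of the 9 arrays, 13 members could be tested, and the counts were 6, 5, 9 and 9. The spike-in scale gave 12 at 60 against 5 days. Plain normexp broke on the arrays of replicate 3, where its lower quartile was 340.9 to 980.5 against 68.4 to 73.0 on replicate 1; without 63 spots of bright local background, a choice made after seeing the data, it gave 1, 3, 10 and 11 on 6 arrays and kept 14 of the 46 calls. Under it 5 differences turned sign, for which the cause was not tested: Cyp1a1 -0.16, Cyp2d2 -0.22 and Cyp2r1 -0.07 at 60 against 12 days, and Cyp2f4 -0.01 and Cyp2r1 -0.15 at 60 against 5 days. Normexp was run with an offset of 50 units, beside 75th percentiles of 150 to 437 units before it. Such an offset narrows the log2 differences of dim probes, and its part in the lost calls was not tested. Leaving out 1 array or 1 replicate number gave 3 to 12, 10 to 15, 14 to 19 and 17 to 23 members, lowest without replicate 2; 12 calls were lost without at least 1 single array. Signal over background limits what can be said of members seen at 1 age only: their folds are lower bounds, and an age without signal is not shown to lack the transcript.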
